A study of Rattus norvegicus with 6 samples.

Results

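Interferon response genes are the genes that cells switch on when interferon, a cytokine of antiviral defence, binds its receptor. The 9 genes described here are Cxcl10, Cxcl11, Mx1, Mx2, Isg15, Irf7, Ifit2, Ifit3 and Oas1a. They were chosen by name as targets of interferon, with earlier results of these data known. On the array they were found by the RefSeq transcript that each probe carries. This gave 14 probes among 61537 that were not controls, for 9 of 15645 gene symbols. All 9 genes passed the filter on dim probes. Mx1, Mx2, Ifit2, Ifit3 and Oas1a had 2 probes each, and the brighter probe stood for the gene.

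RNA of the renal cortex, the outer kidney with its glomeruli and proximal tubules, was measured with 1 Agilent array per animal on 6 male Sprague-Dawley rats bought at 5 weeks of age. Of these, 3 were given corn oil as vehicle and 3 chlorothalonil, an organochlorine nitrile fungicide, at 500 mg/kg/day, each for 4 weeks. All were kept on a basal diet, and the labels name no transgene or deletion. Because the tissue was measured whole, fewer cells of a type and less RNA per cell cannot be told apart. The question of the design is which genes of the cortex differ after chlorothalonil.

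Interferon of type I or type II binds a receptor at the cell surface, and Janus kinases then activate transcription factors that enter the nucleus. These bind DNA elements before the genes they turn on, the interferon-stimulated response element or ISRE and the gamma-activated site or GAS. The products block viral replication, mark proteins, attract T cells and amplify interferon production. In kidney, tubule cells, resident macrophages and endothelium can all respond in this way.

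In the limma fit of chlorothalonil against corn oil over all 29115 features, 909 passed a Benjamini-Hochberg adjusted p of 0.05, which is 3.12% of those tested. On each array between 62.1% and 67.8% of probes were well above background, and none was saturated. The 3 control arrays shared 1 slide and the 3 treated arrays shared another, so slide and treatment cannot be told apart in any value below. The third chlorothalonil sample names ethylenediamine dihydrochloride as its source but chlorothalonil in its title, treatment and dose, and it was kept in that group. All 14 proximal tubule markers, such as the phosphate transporter Slc34a1 and the endocytic receptor Lrp2, were well above background on all 6 arrays.

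One control animal, corn oil replicate 1, stood apart, and values without it are given below for the members, their probes and the lists. For a gene lowest in that animal, leaving it out can only lower the difference, so such a fall is not a test. Corn oil replicate 1 was the lowest of the 6 arrays by at least 1 log2 unit for 204 features, 0.701% of those measured on every array. The same count was 25 to 64 features for each other array. The features that set it apart included transcripts of liver cells, chosen after the data were seen. Albumin, Alb, lay at −4.91 in corn oil replicate 1 and between 0.40 and 2.32 in the other 5 arrays, in log2 signal relative to the array's 75th percentile, the scale of all levels below. Transthyretin, Ttr, lay at −5.64 there, where it was not well above background, and between −0.27 and 1.55 elsewhere.

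Of the 9 interferon response genes, 1 passed the test and 8 did not. Cxcl11 fell, by 0.67 ± 0.06 (SE) on the log2 scale, and its groups did not overlap, as for 14.0% of all features in that direction. No member passed in the other direction, where 1.30% of all features did, and 1.82% passed as lower. The median log2 fold change of the 9 was 0.26, against 0.00 over all features, with 7 above 0 and 2 below, where 50.8% of all features were above 0. Without corn oil replicate 1 that median was −0.01, with 4 above 0. Without chlorothalonil replicate 3, the sample with the second compound name, it was 0.11, and Cxcl11 stayed past the threshold with an adjusted p of 0.0452 in limma.

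For most of these genes the corn oil animals differed more among themselves than the group means did. Replicate 1 of that group was the lowest of all 6 arrays for 6 of the 9 genes (Mx1, Isg15, Irf7, Ifit2, Ifit3 and Oas1a), where it was the lowest for 16.7% of all features. Isg15, Irf7 and Oas1a lay at least 2.54-fold below the next lowest array there. By probe, it was the lowest on 11 of the 14. These are descriptions of 1 animal, on genes chosen with earlier results of these data known, and have no test. With every kept probe tested on its own, where 2.67% of 39862 passed, the Cxcl11 probe was again the 1 member probe to pass.

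**Figure D1:**
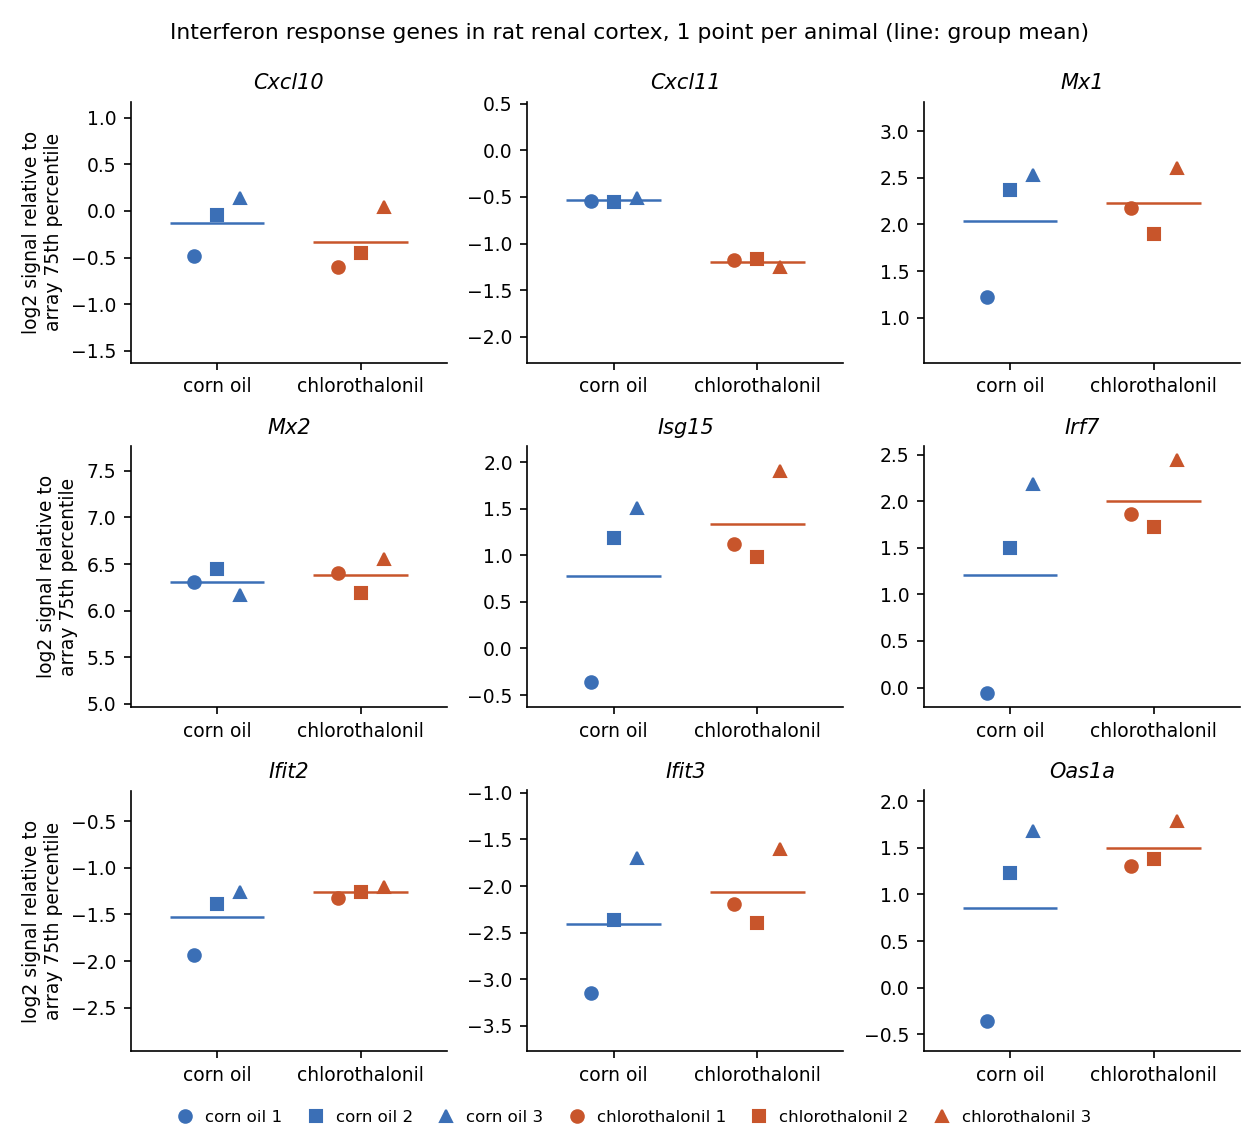
Log2 signal relative to each array's 75th percentile for the 9 genes, 1 point per animal, with the group mean as a line, and the same span of log2 units on each vertical axis. Cxcl11 is lower on all 3 chlorothalonil arrays, from −1.25 to −1.17 against −0.55 to −0.51, while Isg15, Irf7 and Oas1a are low in corn oil replicate 1 alone, at −0.36, −0.06 and −0.36.

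Irf7 is the transcription factor that amplifies type I interferon production and is itself induced by interferon. In replicates 1 to 3 of the corn oil group its levels were −0.06, 1.5 and 2.18, and in those of the treated group 1.86, 1.72 and 2.44, the order kept below. As processed signal, before scaling, these were 859, 2704 and 4207 against 3230, 3067 and 4556. The low value is that of corn oil replicate 1, and the other 5 arrays of both groups overlap. The mean was 1.2 ± 1.15 (SD, n = 3) with corn oil and 2.01 ± 0.38 with chlorothalonil. The log2 fold change of 0.80 ± 0.58 (SE) did not pass in limma (adjusted p of 0.5). Without corn oil replicate 1 it was 0.17 ± 0.30, with an adjusted p of 0.808.

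Cxcl10 and Cxcl11 encode chemokines that attract activated T cells and natural killer cells through the shared receptor CXCR3, and their genes neighbour each other in the RefSeq annotation. Cxcl11 lay at −0.54, −0.55 and −0.51 in the controls and at −1.18, −1.17 and −1.25 after chlorothalonil. Its processed signals were 617, 653 and 654 against 395, 413 and 352. All 3 treated animals were lower than all 3 controls, and within each group the animals differed little. No overlap of the groups with chlorothalonil lower was seen for 14.0% of all features. The group means were −0.53 ± 0.02 (SD, n = 3) and −1.20 ± 0.05, which is 1.59-fold lower, with an adjusted p of 0.00987 in limma.

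Cxcl11 was lower under every alternative tried, by 0.61 to 0.69 on the log2 scale. Its adjusted p in limma was 0.0373 without corn oil replicate 1. It no longer passed without chlorothalonil replicate 1 (adjusted p of 0.0562) or replicate 2 (0.0535). Its SD among the corn oil arrays, 0.0248, was smaller than that of all but 4.41% of features, and corn oil replicate 1 lay between the other controls for it.

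Cxcl10 lay at −0.48, −0.04 and 0.14 in the controls and at −0.60, −0.45 and 0.04 after chlorothalonil. The groups overlap, and the highest animal of each group is replicate 3. Its log2 fold change was −0.21 ± 0.23 (SE), with an adjusted p of 0.668 in limma, and −0.39 ± 0.21 with an adjusted p of 0.41 without corn oil replicate 1. Whether the 2 chemokines differ in their response was not tested. Their receptor gene Cxcr3 lay between −3.60 and −2.82 on the 6 arrays, with a log2 fold change of −0.24 ± 0.21 and an adjusted p of 0.584.

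The stretches before the start sites of these 2 genes are shown because the genes are neighbours and of the 9 members only Cxcl11 passed the test. They are the 250 bases before the RefSeq start in the rat assembly GRCr8, on the plus strand, chr14:15988816-15989065 for Cxcl10 and chr14:15973478-15973727 for Cxcl11. Capitals mark the ISRE core, GAAA and GAAA with any 2 bases between them, and GGGAAATTCC, the longest run of letters that both windows share and a site for NF-kB, a factor of inflammatory signalling. Both were searched on both strands.
Cxcl10: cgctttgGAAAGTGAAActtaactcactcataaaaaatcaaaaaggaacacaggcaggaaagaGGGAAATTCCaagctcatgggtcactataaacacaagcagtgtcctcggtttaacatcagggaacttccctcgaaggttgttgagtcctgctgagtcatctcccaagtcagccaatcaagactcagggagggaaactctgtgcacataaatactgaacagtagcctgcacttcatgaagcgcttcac
Cxcl11: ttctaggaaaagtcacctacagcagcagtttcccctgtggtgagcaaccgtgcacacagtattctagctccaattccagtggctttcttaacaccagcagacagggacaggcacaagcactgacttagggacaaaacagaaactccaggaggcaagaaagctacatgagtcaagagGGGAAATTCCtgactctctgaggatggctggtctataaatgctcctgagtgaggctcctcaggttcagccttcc
Cxcl10 holds an ISRE core, GAAAGTGAAA, from 243 to 234 bases before the start, and the NF-kB letters from 187 to 178 bases before it. Cxcl11 holds the NF-kB letters from 74 to 65 bases before its start and no ISRE core in this window. It also holds the GAS letters TTCNNNGAA as TTCTAGGAA, from 250 to 242 bases before the start, which are not capitalised. Of 33469 such windows in the assembly, 3.41% hold the ISRE core, 7.67% the GAS letters and 0.0896% the NF-kB letters. Since the NF-kB letters were taken from these windows, that both hold them is no finding. A match is a description of the letters and not a measured binding site.

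Isg15 encodes a ubiquitin-like protein that is attached to other proteins during an interferon response. It lay at −0.36, 1.19 and 1.51 in the controls and at 1.12, 0.98 and 1.90 after chlorothalonil, with processed signals of 698, 2182 and 2646 against 1946, 1835 and 3137. The first control lay 2.54-fold below the next lowest array, and the remaining animals of both groups overlap. The log2 fold change was 0.56 ± 0.54 (SE), with an adjusted p of 0.617 in limma. Without corn oil replicate 1 the difference was −0.01 ± 0.31, with an adjusted p of 0.987.

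Oas1a encodes an oligoadenylate synthetase, an enzyme that senses double-stranded RNA and activates RNase L. Its brighter probe lay at −0.36, 1.23 and 1.68 in the controls and at 1.31, 1.38 and 1.79 after chlorothalonil. The dimmer probe lay at −3.07, −1.49 and −1.43 against −1.57, −1.54 and −0.91. Both probes place corn oil replicate 1 below every other animal, 3.02-fold below the next lowest on the brighter probe. The log2 fold changes were 0.64 ± 0.53 (SE) and 0.66 ± 0.48 on these probes, neither of which passed. Without corn oil replicate 1 they were 0.03 ± 0.21, with an adjusted p of 0.952 in limma, and 0.12 ± 0.23. Oas1a belongs to a family of closely related genes, so part of its signal may come from relatives.

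Ifit2 and Ifit3 encode tetratricopeptide proteins that act on viral RNA and translation, and their genes are neighbours. Ifit2 lay at −1.93, −1.39 and −1.26 in the controls and at −1.32, −1.26 and −1.21 after chlorothalonil. Its chlorothalonil animals lay within 0.11 log2 units of each other, and corn oil replicate 1 was again the lowest. The log2 fold change was 0.26 ± 0.18 (SE), with an adjusted p of 0.473 in limma. Without corn oil replicate 1 it was 0.06 ± 0.08.

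Ifit3 lay at −3.15, −2.36 and −1.70 in the controls and at −2.19, −2.40 and −1.60 after chlorothalonil. The 3 corn oil animals are spread out for this gene, with replicate 1 lowest and replicate 3 highest. The log2 fold change was 0.34 ± 0.40 (SE), with an adjusted p of 0.692 in limma, and −0.03 ± 0.31 without corn oil replicate 1. The dimmer probes of Ifit2 and Ifit3 gave 0.34 ± 0.27 and 0.42 ± 0.50, and 0.09 ± 0.22 and −0.05 ± 0.38 without that animal.

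Mx1 and Mx2 encode dynamin-like GTPases that trap viral components, and both had probes that disagreed with each other in how much the animals differed. The brighter Mx1 probe lay at 1.22, 2.37 and 2.53 in the controls and at 2.18, 1.90 and 2.61 after chlorothalonil. Its log2 fold change was 0.19 ± 0.38 (SE), with an adjusted p of 0.831 in limma, and −0.22 ± 0.22 without corn oil replicate 1. On the dimmer probe corn oil replicate 1 lay at −6.21, where it was not well above background, and the other 5 arrays lay between −3.72 and −3.08. The dimmer probe had a log2 fold change of 0.70 ± 0.85, and of −0.32 ± 0.15 without corn oil replicate 1 (limma adjusted p of 0.356).

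For Mx2 the brighter probe differed little between animals, from 6.17 to 6.45 with corn oil and from 6.19 to 6.56 with chlorothalonil. Its log2 fold change was 0.07 ± 0.12 (SE), with an adjusted p of 0.802 in limma, and 0.07 ± 0.15 without corn oil replicate 1. The dimmer probe lay at −4.59, −2.03 and −2.78 in the controls and at −2.14, −2.93 and −2.47 after chlorothalonil. On this probe, as on those of Mx1, corn oil replicate 1 was the lowest animal, and its log2 fold change of 0.62 ± 0.66 did not pass. Without that animal it was −0.11 ± 0.32. Both probes carry the same Mx2 transcript in the file, and which of them reports Mx2 was not tested.

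The promoter windows shown are those of Irf7, Oas1a and Ifit3, the members lowest in corn oil replicate 1 whose window holds the ISRE core. Each is 60 bases in GRCr8, with the core in capitals on either strand. Irf7 is read on the minus strand at chr1:205800059-205800118, Oas1a on the plus strand at chr12:41330402-41330461, and Ifit3 on the plus strand at chr1:241527256-241527315.
Irf7: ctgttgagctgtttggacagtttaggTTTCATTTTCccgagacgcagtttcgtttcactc
Oas1a: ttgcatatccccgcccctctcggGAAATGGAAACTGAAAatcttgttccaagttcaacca
Ifit3: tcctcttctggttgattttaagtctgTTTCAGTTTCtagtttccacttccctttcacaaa
The core in Irf7 runs from 69 to 60 bases before the start and in Ifit3 from 44 to 35. Oas1a holds 2 overlapping cores, from 41 to 32 and from 35 to 26 bases before the start. RefSeq promoters were matched for 6 of the 9 genes, of which 4 hold the core (Cxcl10, Irf7, Ifit3 and Oas1a). Mx1, also lowest in corn oil replicate 1, holds none in its 250 bases. Isg15 and Ifit2, lowest there too, had no matched window, and Cxcl10 was not lowest there. A link between the core and the level in that animal was not tested. Of 41 matched genes in a wider list of interferon-induced genes, 20 hold it, or 48.8%, against the 3.41% of all windows.

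The spread among control animals was wide for 5 members, and narrower without corn oil replicate 1. The SD over the 3 corn oil arrays was 1.15 for Irf7, 1.07 for Oas1a, 1.00 for Isg15, 0.73 for Ifit3 and 0.72 for Mx1. For each of these 5 genes, at least 96.5% of all features had a smaller SD. This was 86.6% for Ifit2, 84.4% for Cxcl10, 56.3% for Mx2 and 4.41% for Cxcl11. The SD of the 2 remaining controls, without corn oil replicate 1, was 0.48 for Irf7, 0.32 for Oas1a, 0.23 for Isg15, 0.47 for Ifit3 and 0.11 for Mx1. Irf7 and Ifit3 still had a larger SD than 93.8% and 93.4% of features then, and Mx1 than 58.2%. The median over the 9 members was 0.72 with corn oil and 0.34 with chlorothalonil, where the medians over all features were 0.12 and 0.11. The control medians without that animal were 0.20 and 0.09. The corn oil SD was the larger for 6 of the 9 genes, as it was for 53.0% of all features.

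**Figure D2:**
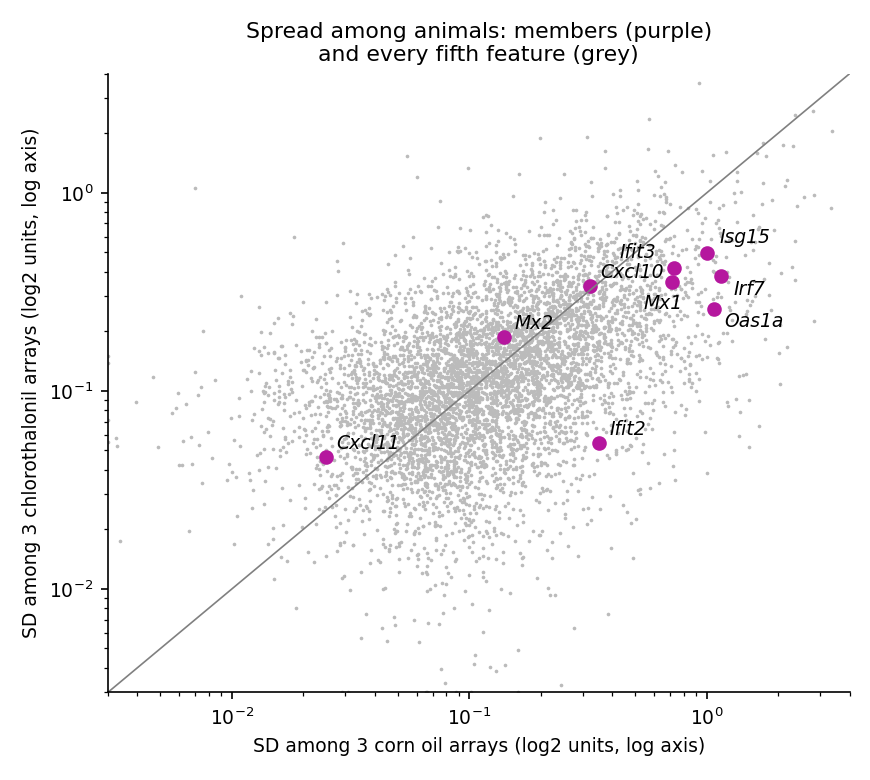
SD among the 3 chlorothalonil arrays against SD among the 3 corn oil arrays, in log2 units on log axes, with the 9 genes in purple, a sample of all features in grey and a line of equal spread. Irf7, Oas1a and Isg15 lie at the right, with corn oil SDs of 1.15, 1.07 and 1.00, and Cxcl11 at the left with 0.02.

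**Figure D3:**
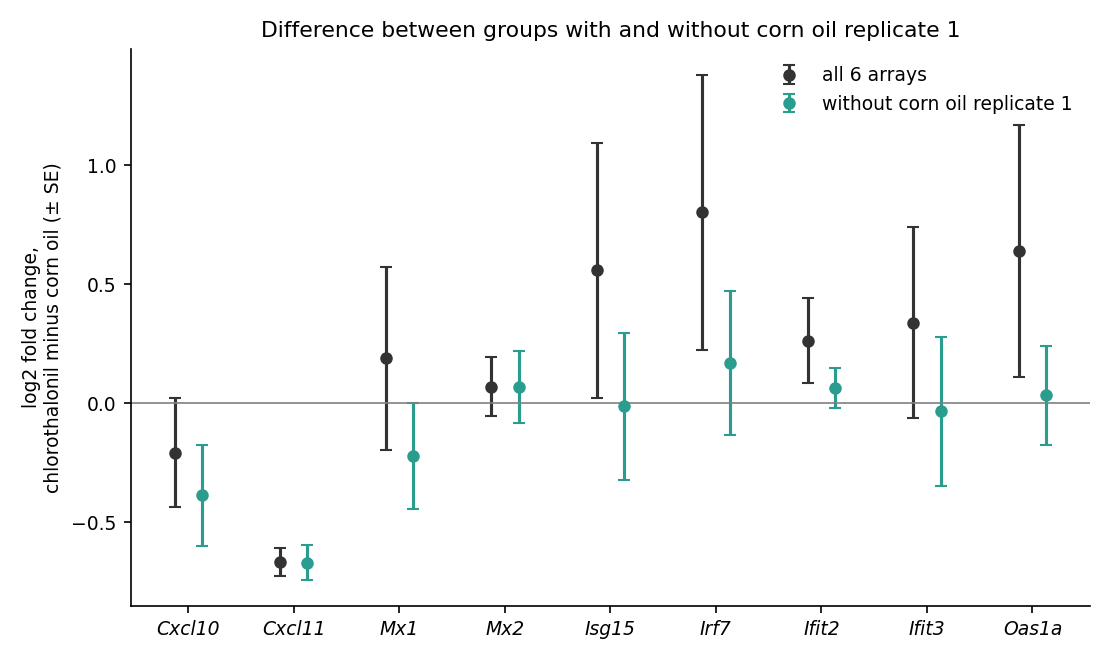
Log2 fold change of each gene, chlorothalonil minus corn oil, with its SE, from all 6 arrays in black and without corn oil replicate 1 in green. Cxcl11 stays at −0.67 in both, while Irf7 goes from 0.80 to 0.17 and Oas1a from 0.64 to 0.03. Corn oil replicate 1 was the lowest array for Irf7 and Oas1a, so leaving it out could only lower their difference. Without corn oil replicate 3, the highest control for both, Irf7 was at 1.29 and Oas1a at 1.05 (not drawn).

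Among other genes of the pathway, 6 lists held 135 genes that are not members, of which 96 were measured and 0 passed in limma, with 5 at an unadjusted p under 0.05. That is 5.21%, where 19.7% of all features reached such a p. Their median log2 fold change was 0.07. Leaving out corn oil replicate 1 gave −0.06, with 0 of 97 measured genes past the threshold and 8 at an unadjusted p under 0.05. The 19.7% belongs to the fit of all 6 arrays, and the share of all features without that animal is not given here. The ligands and receptors list had 7 measured genes of 16, and the interferon genes Ifnb1, Ifng, Ifna2, Ifna5 and Ifnk and the receptor gene Ifnlr1 did not pass the filter on dim probes. The interferon gene Ifna4 was well above background on all 6 arrays, with a log2 fold change of 0.07 ± 0.12 (SE) and an adjusted p of 0.799 in limma. The receptor chains Ifngr2, Ifngr1 and Il10rb had the smallest p, at 0.20 ± 0.09 (SE), 0.16 ± 0.08 and 0.17 ± 0.09. The median over the 7 measured ligand and receptor genes was 0.12, and 0.17 without corn oil replicate 1.

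Of 18 signalling genes, all measured, 0 passed and 0 had an unadjusted p under 0.05. Without corn oil replicate 1, 0 passed and 3 had such a p in limma. The median log2 fold change of the list was 0.006 over all 6 arrays and −0.046 without that animal. The genes with the smallest p were Stat3, a transcription factor of cytokine signalling, at −0.24 ± 0.12 (SE), the feedback inhibitor Socs3 at 0.32 ± 0.16 and the Janus kinase Tyk2 at 0.12 ± 0.08. Of 10 measured nucleic acid sensors, 0 passed and 1 had an unadjusted p under 0.05. That gene was Ifih1, a sensor of long double-stranded RNA, which lay at −3.71, −3.20 and −3.17 in the controls and at −3.00, −2.54 and −2.86 after chlorothalonil, an adjusted p of 0.189 in limma. Tlr3, a sensor of endosomal RNA, had 0.51 ± 0.26 and the kinase Tbk1 0.17 ± 0.11. For Tlr3 the value was 0.23 ± 0.14 without corn oil replicate 1. The median over the sensors was 0.07, and −0.06 without that animal, where 0 of 11 measured genes passed.

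The list of other genes induced by type I interferon had 34 measured members, of which 0 passed and 2 had an unadjusted p under 0.05. Samhd1, an enzyme that hydrolyses deoxynucleotides, lay at −2.81, −2.57 and −2.81 in the controls and at −2.31, −2.20 and −2.20 after chlorothalonil. Its log2 fold change of 0.50 ± 0.09 (SE) missed the threshold in limma (adjusted p of 0.0517). The groups did not overlap, with chlorothalonil higher, as was so for 13.6% of all features. It passed with quantile normalization (0.0493), median scaling (0.0463), normexp (0.0483) and a filter on all 6 arrays (0.0435). Ifit1, the other gene with such a p, was well above background on 3 of 3 chlorothalonil arrays and on 0 of 3 corn oil arrays. Its mean level with chlorothalonil was at least 1.31-fold higher, computed against the dimmest signal well above background on each corn oil array. It was kept through the chlorothalonil arrays alone, so this bound is not a test of a difference. Its groups overlapped, with corn oil replicate 3 at −5.42 and chlorothalonil replicate 2 at −5.53, and its adjusted p in limma was 0.25. Oas3 had −0.50 ± 0.27. The difference was above 0 for 28 of the 34, and for 9 without corn oil replicate 1.

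The lowest array was corn oil replicate 1 for 28 of these 34 genes, or 82.4%, against 16.7% of all features. This list, too, was chosen with earlier results of these data known, and the share was not tested. The feedback inhibitor Usp18, from the signalling list, lay at −3.20, −1.44 and −1.25 in the controls and at −1.63, −1.87 and −0.91 after chlorothalonil. Another oligoadenylate synthetase, Oas1k, lay at −3.34, −1.73 and −1.24 against −1.80, −1.75 and −1.32, and Ifi27l2b at 2.10, 3.83 and 4.01 against 3.48, 3.52 and 4.20. These 3 genes, chosen after their values were seen, lay 2.52-fold, 2.91-fold and 2.61-fold below the next lowest array. Oas1b, by contrast, differed little, from 5.75 to 5.94 over the 6 arrays.

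Of 10 measured targets of interferon gamma, 0 passed and 1 had an unadjusted p under 0.05. That was Wars1, a tryptophan tRNA synthetase, at 0.17 ± 0.06 (SE), and it was followed by the class II transactivator Ciita at −0.41 ± 0.17 and the chemokine Cxcl9 at −0.31 ± 0.19. Of 17 measured genes of MHC class I antigen presentation, 0 passed and 1 had an unadjusted p under 0.05. B2m, the light chain of class I molecules, had 0.25 ± 0.09, tapasin, Tapbp, 0.36 ± 0.15 and RT1-CE5 0.14 ± 0.10. Leaving out corn oil replicate 1 gave Cxcl9 −0.51 ± 0.10 and RT1-CE5 0.05 ± 0.08. The median over the interferon gamma targets was −0.03, and −0.14 without that animal. For MHC class I it was 0.09, and −0.015 without that animal, and 0 genes passed in either list then. The lowest array was corn oil replicate 1 for 4 of the 10 and 12 of the 17.

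Marker lists of other cells moved in part with these genes. Each list is given by its median deviation from the genes' corn oil means, which for the 9 members was −0.75, 0.14 and 0.49 over the controls and 0.21, 0.00 and 0.57 over the treated animals, by replicate. For 18 of 20 macrophage and myeloid markers that were measured it was −0.35, 0.27 and 0.07 and −0.08, −0.15 and 0.00. It was lowest in corn oil replicate 1 for 11 of the 18, while Itgam and Cd163 did not pass the filter on dim probes. Their summed level, in log2 units from its corn oil mean, ranged from −0.06 to 0.03 with corn oil and from −0.12 to 0.09 with chlorothalonil. For 11 of 16 lymphocyte markers the median was −0.16, 0.11 and 0.10 and −0.01, −0.24 and 0.12, and Cd3e, Cd2 and Cd79b did not pass that filter. Their summed level ranged from −0.17 to 0.14 and from −0.20 to 0.13.

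Of 31 liver cell markers, a list chosen after the data were seen, 27 were measured, and corn oil replicate 1 was the lowest array for 19 of them. Their median was −0.95, 0.73 and 0.41 with corn oil and 0.33, 1.42 and 0.18 with chlorothalonil. Their summed level, in which the enzyme Cyp2e1, also made in kidney, is the brightest, ranged from −0.29 to 0.18 and from −0.29 to 0.02, and Cps1, Tat, Tdo2 and C9 did not pass the filter. The highest array for this list was chlorothalonil replicate 2, and for the 9 members it was chlorothalonil replicate 3. Corn oil replicate 1 was lowest for 1 of 14 proximal tubule, 1 of 10 endothelial and 0 of 6 podocyte markers. All 5 measured red blood cell markers lay higher on every chlorothalonil array than on any control, as 13.6% of all features did. Their log2 fold changes ran from 0.24 to 0.64, 0 passed in limma, and an unadjusted p under 0.05 was reached by 4. The part of macrophages, lymphocytes or liver RNA in the low interferon response genes of corn oil replicate 1 was not tested.

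**Figure D4:**
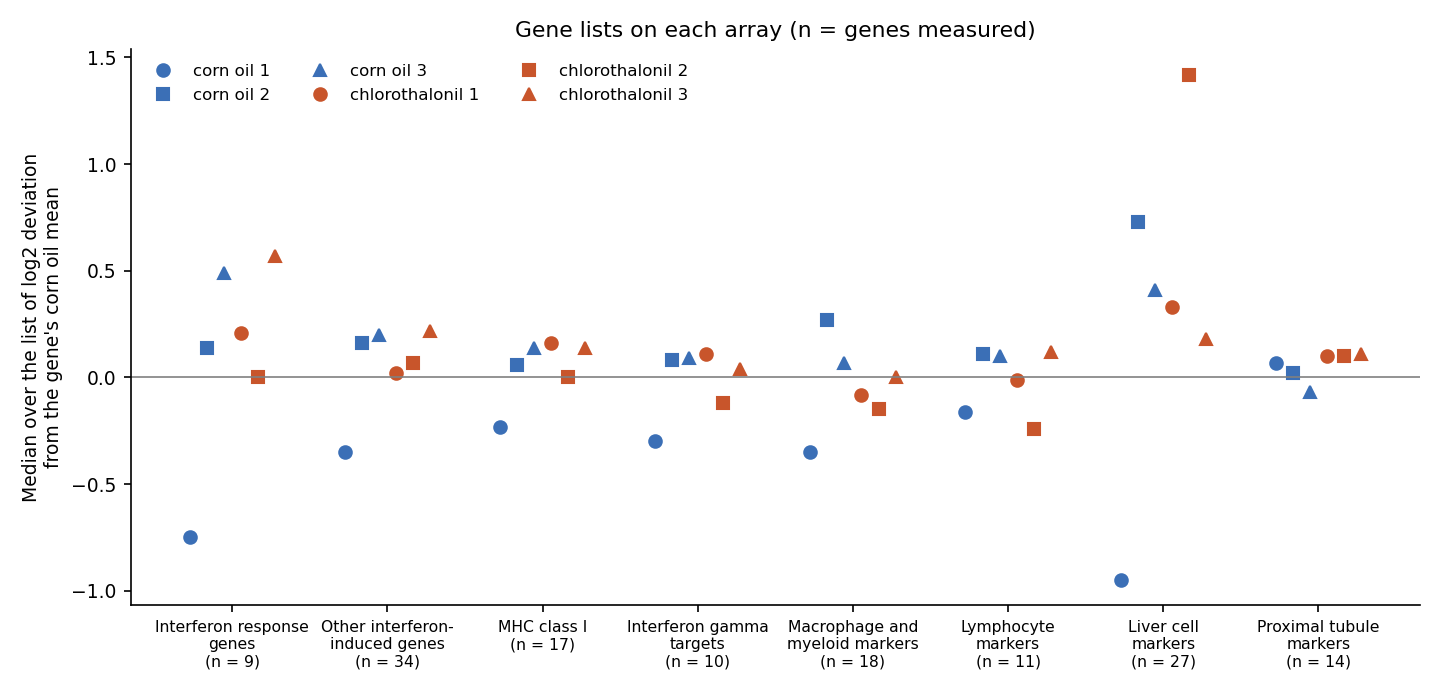
Median over each gene list of the log2 deviation from the gene's corn oil mean, with 1 point per array. Corn oil replicate 1 is lowest for the 9 interferon response genes (−0.75), other interferon-induced genes (−0.35) and liver cell markers (−0.95). The liver cell list was chosen after the data were seen. That array is also lowest for macrophage and myeloid markers (−0.35), interferon gamma targets (−0.30) and MHC class I (−0.23). It lies at −0.16 for lymphocyte markers, where chlorothalonil replicate 2 is lower, and at 0.07 for proximal tubule markers.

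The genes most like the members over the 6 arrays were sought among 11902 named features outside the 9, leaving out LOC and RGD names. Likeness was the root mean square difference between a gene's deviations from its own mean and the median deviation of the members. The 5 nearest were Rtp4 at 0.0931 log2 units, Rhox5 at 0.0997, Bst2 at 0.106, Nefm at 0.112 and Ifi27 at 0.115. Rtp4, Bst2 (tetherin, which holds virus particles at the cell surface) and Ifi27 are themselves known to be induced by interferon. Rtp4 lay at −1.09, 0.17 and 0.44 in the controls and at −0.10, −0.27 and 0.46 after chlorothalonil. Rhox5, a homeobox gene, was well above background on 4 of the 6 arrays only, and Nefm encodes a neurofilament. Of the members themselves, Mx1 was nearest to that median profile at 0.0616, and Cxcl11 farthest at 0.641, a difference larger than that of 91.2% of the named features. Each member is itself part of that median, so its difference is not measured as that of a gene outside the 9 is.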

How the data were processed

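The deposited spot values are intensity, linear and not logged, extracted with Agilent Feature Extraction (version 10.7 per the submitters' processing notes), with background subtracted within each array and no scaling between arrays, per the file headers. The authors' deposited value table is a ratio of that processed signal to 1 constant per array, close to its 75th percentile, found by division. It was used as an alternative.

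From each log2 processed signal the 75th percentile of its array, over probes that were not controls, was subtracted. Outlier spots were left out. The filter on dim probes kept 39862, those well above background throughout 1 group or both and with 2 or more usable spots in each. Probes were named by transcript accession through the RefSeq table of GRCr8 (28206 of 61537). The array design is annotated on an older build. The brightest kept probe stood for a gene, giving 29115 features. They were fitted with limma 3.58.1 in R 4.3.3, with no covariate, and p-values were adjusted over all features by Benjamini-Hochberg (threshold 0.05). The fit was tested on simulated data, with 50 changed features at each of 4 sizes among 29115. It recovered 26% of changes of 0.5 log2 units, 68% of 1, 80% of 2 and 96% of 3, with 9 false calls. A member that did not pass may therefore have changed by such small amounts.

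The members and lists were chosen with earlier results of these data known. Named genes were all members, any list gene past the threshold, the 3 genes of each list with the smallest p where fewer passed, and the 5 features nearest to the members' median profile. The series calls the 3 samples of a group biological replicates. With 3 against 3, the number of arrays limits the precision. Alternatives were other scalings, normexp on the median spot signal, filters, probe rules, variance priors, a replicate block and each array left out. Same-numbered samples of the 2 groups correlated at 0.0948, 0.0177 and 0.0511 in their deviations from the group means, so the numbers were not taken as pairs. No chance test was run on the members as a group.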

Additional observations from a re-analysis of the deposited data

How the results depend on the processing

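Cxcl11 was lower in all 17 alternatives, by 0.61 to 0.69, and the count of 1 interferon response gene past the threshold held in 14 of them. It was 0 with the replicate block (adjusted p for Cxcl11 of 0.0855), and 0 to 1 with each array left out. With that block 0 of 29115 features passed in limma, with 5271 at an unadjusted p under 0.05, and the numbers were not shown to pair the samples. The count of all features past the threshold was 172 with no filter on dim probes and 112 to 388 with each array left out. The count in the wider interferon lists was 1, Samhd1, with quantile normalization, median scaling, normexp and the filter on all 6 arrays, and 0 otherwise. The median log2 fold change of the members ranged from −0.01 to 0.44. Corn oil replicate 1 was lowest for 6 or 7 of the 9 members in all alternatives that kept it, and on 11 of 14 probes taken singly. Signs turned for genes that did not pass in any setting. Mx2 was at −0.0748 with normexp and ranged from −0.0197 to 0.166 with each array left out. In the same way Mx1 ranged from −0.221 to 0.435, Isg15 from −0.0131 to 0.924 and Ifit3 from −0.0337 to 0.69, each lowest without corn oil replicate 1. With the mean of a gene's probes, Stat3 was at 0.0392 and Tbk1 at −0.0524. In an alternative added after seeing the data, each probe tested singly without corn oil replicate 1, the dimmer probes of Mx1, Mx2 and Ifit3 turned to −0.32, −0.107 and −0.0454. Median scaling gave 435 higher and 368 lower features, against 378 and 531. A block for slide was not run, since each slide holds 1 group. Dim probes such as Ifit1 have only a bound.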

Other observations

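Beyond the interferon genes, the named features by which corn oil replicate 1 lay farthest below the other 5 arrays included transcripts of liver and of tubule cells, chosen after their values were seen. Of the 20 largest such gaps among named features well above background on all 6 arrays, leaving out provisional LOC and RGD names, Alb lay 5.31 log2 units below the next array, the apolipoprotein Apoc1 3.49, the fatty acid binding protein Fabp1 3.38 and haptoglobin, Hp, 2.20. The amino acid transporter Slc7a13 of the proximal tubule lay 2.52 below, and the glutathione transferase Gstm1 2.31 below. Of these 20 features, 3 were on the interferon lists (Oas1a, Irf7 and Oas1k), against 0 of the 20 for each of the other 5 arrays. Corn oil replicate 1 was the lowest array for 19 of the 27 measured liver cell markers. The enzyme Cyp2c11 of that list, picked after its values were seen, went the other way. It lay at −1.60 in corn oil replicate 1 and between −4.25 and −2.68 in the other arrays. The part of liver RNA in these differences was not tested.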
